A study of Mus musculus with 12 samples.

Results

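Genes of antioxidant defence, glutathione metabolism and the NRF2 response were followed in adult mouse cardiac myocytes cultured with or without CTGF, the matricellular protein connective tissue growth factor. The group was a list of 39 genes, and every probe whose platform gene symbol is on the list was taken from the table of raw intensities. Probes were matched for 35 of the 39 genes, with 69 probes in all, out of 19053 genes with a probe of 1 symbol on the array. Gsr, G6pdx, Prdx5 and Prdx6 were not analysed here. All 35 genes had a probe detected on at least 6 of the 12 arrays, as had 8905 genes of the whole array, and 32 of the 35 were detected on all 12.

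Myocytes from hearts of C57BL/6 mice, 12 to 16 weeks old, were freed by collagenase perfusion, plated on laminin, and kept in medium containing 10 mmol/L BDM (an inhibitor of contraction) and 0.1% BSA. The CTGF group had 6 samples kept for 48 h with CTGF at 200 nmol/L, and the Control group had 6 samples cultured for 48 h without it. RNA was measured on single-colour Illumina bead arrays, 1 array per sample. The labels do not say whether the 6 samples of a group came from separate hearts, so the variation that the p-values rest on could be technical in part, and 6 arrays a group limit the precision. Slides are not named in the labels, so a slide that went with the treatment cannot be told apart from it.

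NRF2, encoded by Nfe2l2, is a transcription factor that KEAP1 holds in the cytosol and passes to degradation through a CUL3 ubiquitin ligase. Oxidants and electrophiles modify KEAP1, NRF2 then enters the nucleus, pairs with a small MAF protein and binds antioxidant response elements in the promoters of its targets. These targets make and use glutathione, reduce quinones, break down haem and repair oxidised peroxiredoxins. Cardiac myocytes hold many mitochondria, a source of superoxide, and rely on superoxide dismutases, peroxiredoxins and glutathione peroxidases to remove it and the peroxide it gives.

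Levels below are log2 intensities after background correction and quantile normalization. A difference is CTGF minus Control, with the limma standard error (SE). A gene is called higher or lower at a limma adjusted p (Benjamini-Hochberg over the 8905 genes) under 0.05. Each gene is represented by its brightest detected probe, and levels of different probes are not set against each other.

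With CTGF, 8 of the 35 genes were higher, 11 were lower and 16 were not called. In all genes tested, 24.6% were higher and 21.3% were lower. The shares in the list were 22.9% higher and 31.4% lower, 54.3% in either direction against 45.8% of all genes, and the median log2 difference was -0.01 in the list and 0.03 in all genes. The list held both rises and falls, and differences between roles were not tested. The rises were in Srxn1, Nqo1, Gclm, Mt1, Hmox1, Gsta4, Keap1 and Gpx3. The falls were in Gsta3, Cbr3, Ephx1, Txn1, Gstt1, Txn2, Gstk1, Gstm1, Sod2, Gstp1 and Prdx1. At least 1.5-fold changes were called in 4 genes upward and 5 downward, where 7.74% and 9.79% of all genes were. All 6 CTGF arrays lay above all 6 control arrays for 7 genes and below them for 9, against 13% and 12.1% of all genes.

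**Figure D1:**
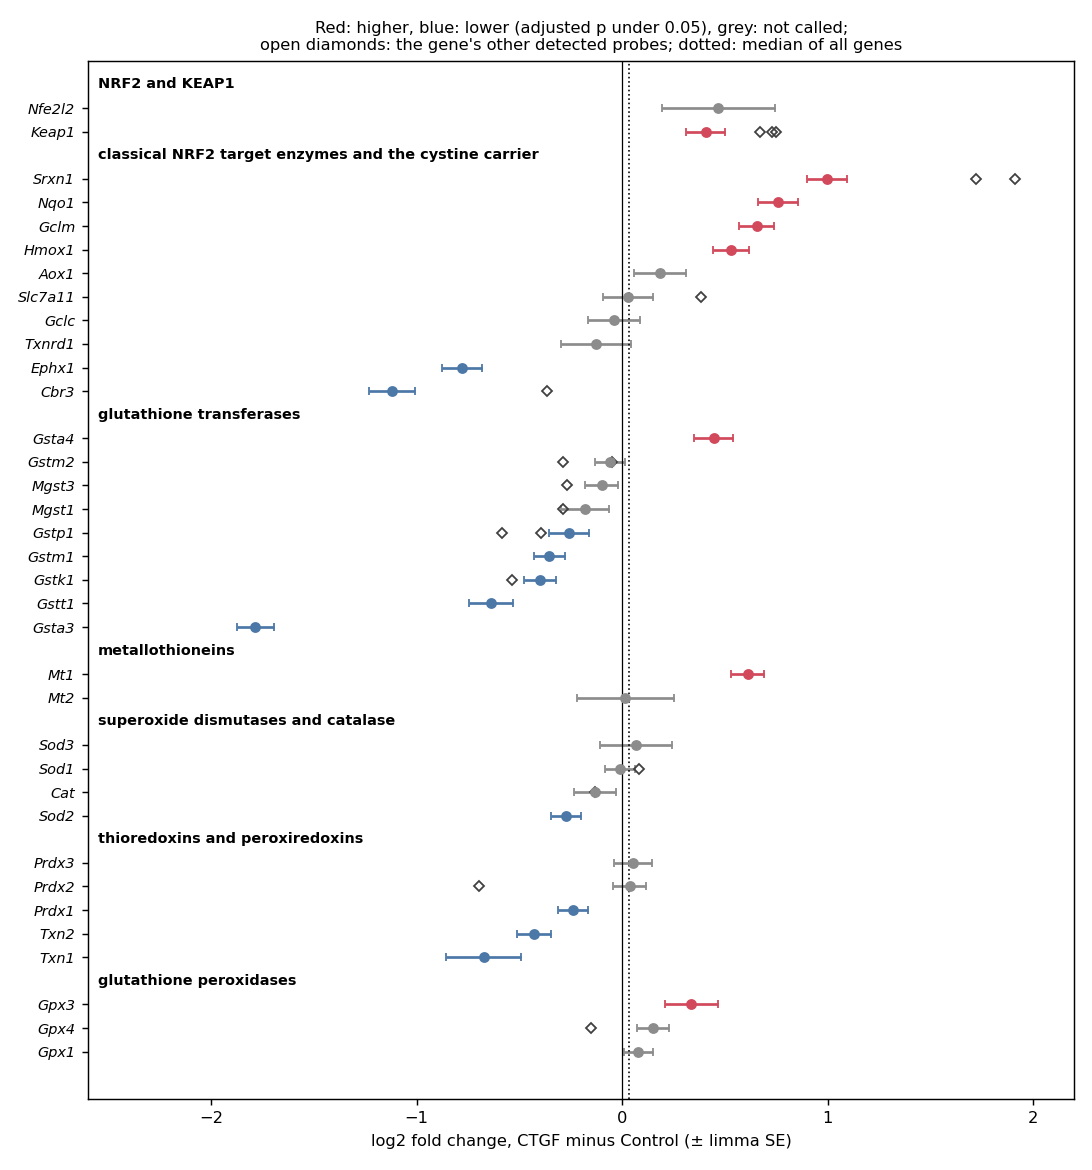
Log2 difference (CTGF minus Control, x axis) of 35 antioxidant genes by role, with bars for the limma SE of 6 against 6 arrays; red points were called higher, blue lower, grey not called, open diamonds are a gene's other detected probes and the dotted line is the median of all 8905 genes at 0.03. Srxn1 (0.996) and Gsta3 (-1.79) lie at the ends, and the 3 Srxn1 probes are all to the right of zero.

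Each fold change is read against all genes measured, because the scaling between arrays moved their median. Without normalization between arrays the median of all genes was 0.35, and under median scaling it was 0.32. There, 13 and 12 of the list were higher and 2 and 3 lower, where 49.1% and 47.1% of all genes were higher and 7.78% and 8.31% lower. Cyclic loess and the authors' values each gave 8 higher and 11 lower, where 21% and 25.4% of all genes were higher and 24.3% and 22% lower. All 8 rises were called without normalization between arrays and with median scaling. Of the falls, Gsta3 and Cbr3 were called in both of these fits and Gstt1 with median scaling, and the other 8 lost their call in both. The median of all genes was higher in these 2 fits than with quantile normalization, where it was 0.03. Which scaling lies nearer to the true levels was not tested. The part of this difference in the lost calls and turned signs was not tested either. Single genes moved by unequal amounts. Mt1 was at 0.61 both with quantile normalization and without normalization between arrays, while Cat was at -0.13 and 0.31. A distance from the median of all genes does not remove such differences between genes. Measured from the median of all genes, Gstm1 was at -0.39 with quantile normalization and at -0.32 in both fits, although its own value turned to 0.0269 and 0.0018. Measured in the same way, Sod2 was at -0.31 and -0.46, Ephx1 at -0.81 and -0.69, and Gstk1 at -0.43 and -0.44. Mt1 lay nearer to the other genes there, at 0.58 and 0.26.

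**Figure D2:**
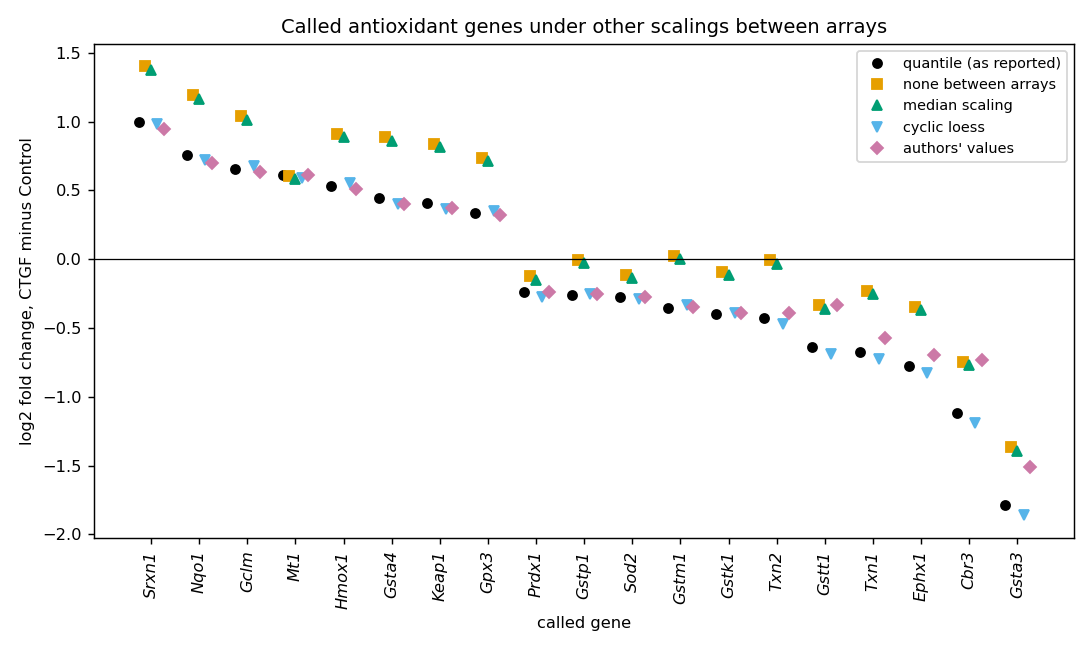
Log2 difference (CTGF minus Control, y axis) of the 19 called genes under quantile normalization and 4 other scalings between arrays, 1 symbol for each. Squares and upward triangles (no normalization and median scaling) sit above the rest for most genes, the Mt1 difference does not move up with the others, so that its distance from the median of all genes is 0.58 with quantile normalization and 0.26 with those 2, and among the falls Gsta3 and Cbr3 stay farthest below zero.

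Myocytes were not the only cells whose genes were read, so marker genes stand beside the results. Against the 21.3% of all genes called lower and 24.6% called higher, 3 of 13 measured cardiac myocyte markers (23.1%) were lower and none higher. Their summed normalized intensity was 290547 to 316869 on control and 267512 to 298645 on CTGF arrays. These values rest on the brightest probes, which were called lower for Tnni3 (-0.89), Pln (-0.75) and Actc1 (-0.31). The brightest probes of Myh6 (-0.24) and Ttn (-0.12) were not called. Dimmer probes were called lower at -0.78 for Myh6, -0.88 for Actc1, and -1.44 and -1.54 for Ttn. Those of Atp2a2 were called lower at -0.29 and higher at 0.45. The other detected dimmer probes of this list were not called. Bright probes weigh most in the sum of the list. Among them, Myl2 had raw intensities of up to 65573 on control and 65657 on CTGF arrays. Whether differences are compressed at such signals was not tested. All 14 measured endothelial markers were lower, with sums of 8056 to 9727 on control and 2322 to 2702 on CTGF arrays. Of 7 smooth muscle and pericyte markers 6 were lower and 1 higher (4679 to 5347 against 2765 to 3366). Of 7 fibroblast markers 3 were lower and 1 higher (4194 to 7452 against 5333 to 6252), and of 5 macrophage markers 2 were lower (510.0 to 702 against 180 to 252). The mean log2 level of each of these 5 lists was lower with CTGF by an exact permutation test over arrays (two-sided p = 0.00216 for each, also when adjusted over the 5, and the smallest that 6 against 6 can give), though the median difference of the macrophage markers was 0.02 and the mean -0.63. For the fibroblast markers the median was -0.13 and the mean -0.50, with Pdgfra, Tcf21 and Pi16 lower, Meox1 higher at 1.15 and the other 3 not called. Without normalization between arrays the cardiac myocyte and fibroblast lists no longer passed (-0.12 and -0.20, where the median of all genes was 0.35). The marker lists and the permutation test were chosen with earlier results of these data known. The endothelial markers Tie1, Aplnr and Gpihbp1 were detected on 2, 1 and 2 of the 6 CTGF arrays and on all 6 controls. No lymphocyte or erythroid marker was detected on at least 6 arrays. In such bulk RNA, fewer cells of a type and less RNA per cell cannot be told apart, and the part of these cells in the antioxidant results was not tested.

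NRF2 itself was not called and its inhibitor was higher. Nfe2l2 had log2 levels from 5.98 to 7.99 with a median of 7.47 in controls, and from 6.99 to 8.01 with a median of 7.95 with CTGF. The groups overlapped, and the lowest array of each group, Control replicate 6 and CTGF replicate 1, stood well below the other 5. Over all genes, Control replicate 6 also had the largest mean absolute deviation from its group mean (0.208), followed by Control replicate 1 (0.198). The difference of 0.47 ± 0.28 (SE, limma adjusted p = 0.18) was 0.20 without Control replicate 6 and 0.62 without CTGF replicate 1, not called in either case, but it was called without normalization between arrays (0.89, limma adjusted p = 0.0014) and under median scaling (0.86, limma adjusted p = 0.00229). Measured from the median of all genes, it was 0.43 with quantile normalization and 0.54 in those 2 fits. Its pooled SD of 0.57 was larger than that of 99.7% of all genes, where the median was 0.194. Keap1, the cysteine-rich sensor that retains NRF2, lay between 8.82 and 9.18 (median 8.99) in controls and between 9.22 and 9.72 (median 9.32) with CTGF. The groups did not overlap, and Keap1 rose by 0.41 ± 0.10 (SE, limma adjusted p = 0.00306). Its 3 other detected probes were also called higher, at 0.67, 0.75 and 0.73, with overlapping groups for the last 2.

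Of the 10 measured classical NRF2 targets 4 were higher, 2 lower and 4 not called, where 24.6% of all genes were higher and 21.3% lower. Srxn1, which encodes sulfiredoxin, the enzyme that reduces over-oxidised peroxiredoxins, had the largest rise of the list. Its levels were 9.40 to 9.81 (median 9.47) in controls and 10.29 to 10.70 (median 10.59) with CTGF. The groups were far apart, with a difference of 0.996 ± 0.10 (SE, limma adjusted p = 9.07e-07), which is 1.99-fold. Its 2 other detected probes gave larger values, 1.72 and 1.91, both with no overlap between groups.

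Nqo1, the quinone reductase often used as a readout of NRF2, ranged from 8.58 to 8.95 (median 8.86) in controls and from 9.25 to 9.71 (median 9.63) with CTGF. Every CTGF array was above every control, with CTGF replicate 1 the lowest of its group, and the difference was 0.76 ± 0.10 (SE, limma adjusted p = 1.6e-05). Gclm, the modifier subunit of glutamate-cysteine ligase, which makes the first intermediate of glutathione, ranged from 10.35 to 10.61 (median 10.47) in controls and from 10.84 to 11.28 (median 11.13) with CTGF. Again the groups were separate, and Gclm rose by 0.65 ± 0.09 (SE, limma adjusted p = 2.29e-05). Hmox1, the inducible haem oxygenase, went from a range of 10.24 to 10.71 (median 10.47) to 10.86 to 11.10 (median 11.03) and rose by 0.53 ± 0.09 (SE, limma adjusted p = 0.000205), with no overlap.

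The other 4 were not called. Gclc, the catalytic partner of Gclm, was dim, detected on 5 CTGF and 4 control arrays, and its difference was -0.04 ± 0.13 (SE, limma adjusted p = 0.825). Slc7a11, the cystine carrier that supplies glutathione synthesis, gave 0.03 ± 0.12 at its brightest probe (limma adjusted p = 0.874) and 0.38 at another, which was called. Txnrd1, the cytosolic thioredoxin reductase, gave -0.13 ± 0.17, and the aldehyde oxidase gene Aox1 gave 0.18 ± 0.13, neither called. Without normalization between arrays Aox1 and Slc7a11 were called higher, at 0.35 and 0.36, as was Slc7a11 under median scaling at 0.34, but there they lay only 0.0049 and 0.0179 above the median of all genes.

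Among the listed targets, 2 enzymes of carbonyl and epoxide metabolism were lower. Cbr3, a carbonyl reductase, ranged from 6.99 to 7.46 (median 7.19) in controls and from 5.78 to 6.26 (median 6.21) with CTGF. All CTGF arrays were below all controls, with CTGF replicates 4 and 6 lowest, and the difference was -1.12 ± 0.11 (SE, limma adjusted p = 1.34e-06). Its other probe, detected on 4 CTGF and 5 control arrays, gave -0.36 and was not called. Cbr3 was at -0.73 with the authors' values and at -0.66 without background correction, called in both. Ephx1, the microsomal epoxide hydrolase, ranged from 9.10 to 9.45 (median 9.24) in controls and from 8.19 to 8.73 (median 8.50) with CTGF. The groups were separate, with a difference of -0.78 ± 0.10 (SE, limma adjusted p = 1.17e-05), which kept its sign but lost its call without normalization between arrays (-0.35, limma adjusted p = 0.0732) and under median scaling (-0.37, limma adjusted p = 0.052).

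**Figure D3:**
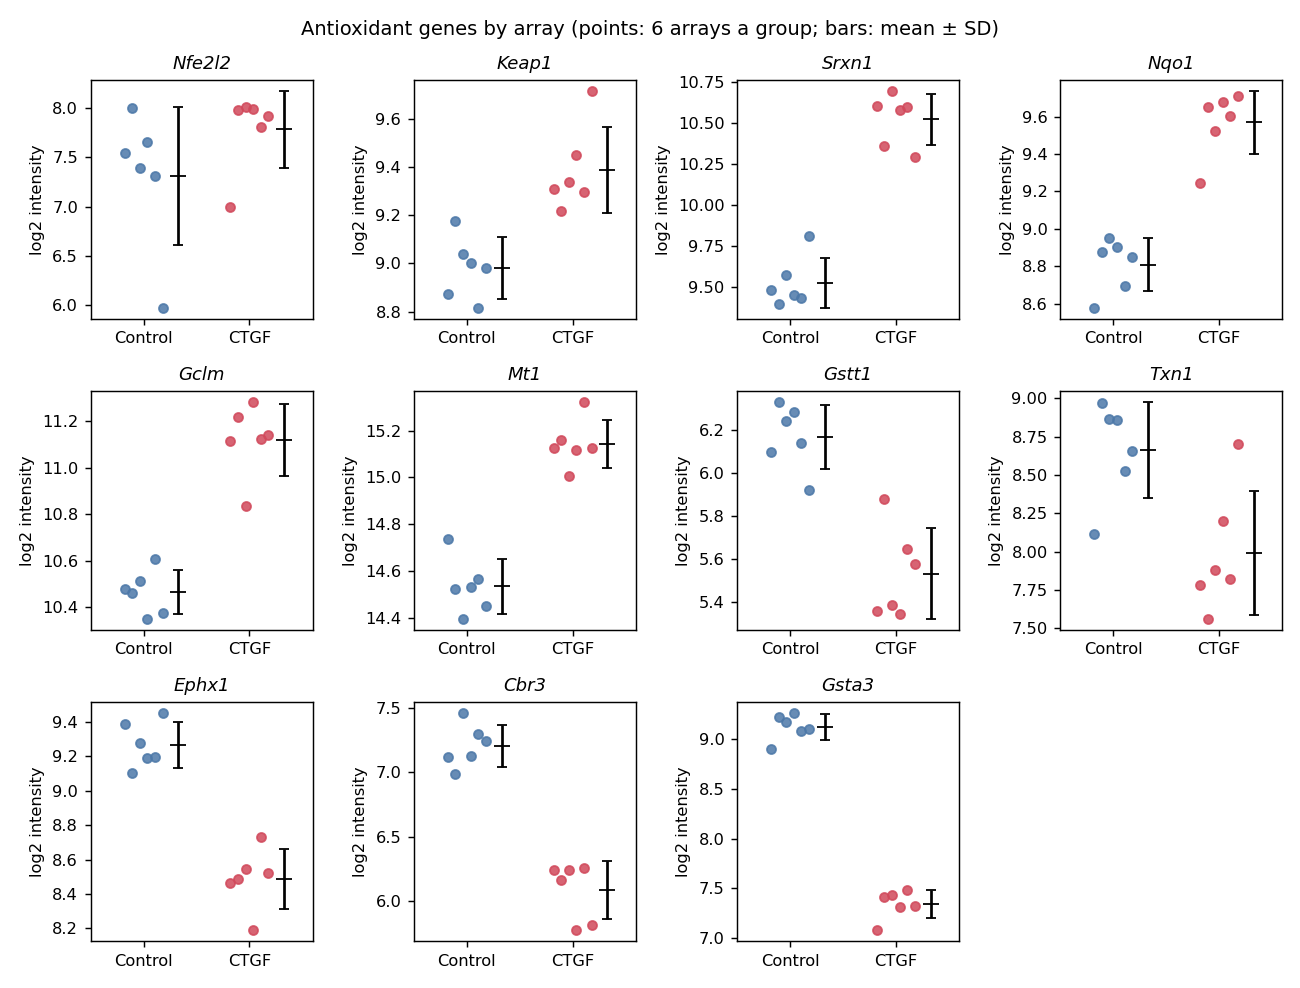
Log2 intensity (y axis, own range in each panel) of Nfe2l2, Keap1 and the 9 called genes with a log2 difference of at least 0.58 in size; each point is 1 array (6 Control in blue, 6 CTGF in red) and bars give the mean ± SD. Nfe2l2 has a low array in each group, the Gstt1 groups are close (5.92 to 6.33 against 5.35 to 5.88), the Txn1 groups overlap, and the other panels besides Keap1 show groups well apart.

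Promoter windows of 6 genes at the ends of the range are printed to show which of them hold the sequence that NRF2 and its MAF partners bind. They run from 250 bases before to 50 after the annotated gene start, 5′ to 3′ on the gene's strand, from RefSeq on GRCm38.p6. Capitals mark the searched motifs on either strand: TGACNNNGC and TGAGNNNGC, 2 forms of the antioxidant response element core, and TGCACNC and TGCGCNC, 2 forms of the metal response element core that metallothionein promoters carry.
Srxn1, chr2:152105274-152105573, plus strand: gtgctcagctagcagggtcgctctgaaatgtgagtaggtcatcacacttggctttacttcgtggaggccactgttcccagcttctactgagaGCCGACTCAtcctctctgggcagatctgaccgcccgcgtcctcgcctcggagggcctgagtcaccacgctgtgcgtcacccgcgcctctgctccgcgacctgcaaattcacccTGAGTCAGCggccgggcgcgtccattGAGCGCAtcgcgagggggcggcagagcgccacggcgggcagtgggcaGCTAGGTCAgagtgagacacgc
Gclm, chr3:122245307-122245606, plus strand: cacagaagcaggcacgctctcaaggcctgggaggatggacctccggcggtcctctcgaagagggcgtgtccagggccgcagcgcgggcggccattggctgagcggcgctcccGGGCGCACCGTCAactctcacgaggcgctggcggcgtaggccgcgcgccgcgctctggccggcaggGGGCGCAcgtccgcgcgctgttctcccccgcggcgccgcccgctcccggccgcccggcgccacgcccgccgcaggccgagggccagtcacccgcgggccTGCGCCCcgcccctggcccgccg
Nqo1, chr8:107403156-107403455, minus strand: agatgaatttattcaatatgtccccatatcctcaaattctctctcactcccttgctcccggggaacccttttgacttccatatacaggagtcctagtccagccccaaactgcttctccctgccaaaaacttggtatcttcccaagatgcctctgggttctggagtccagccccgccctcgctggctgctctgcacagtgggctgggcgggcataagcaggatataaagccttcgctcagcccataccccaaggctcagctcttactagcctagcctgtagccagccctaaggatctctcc
Mt1, chr8:94178839-94179138, plus strand: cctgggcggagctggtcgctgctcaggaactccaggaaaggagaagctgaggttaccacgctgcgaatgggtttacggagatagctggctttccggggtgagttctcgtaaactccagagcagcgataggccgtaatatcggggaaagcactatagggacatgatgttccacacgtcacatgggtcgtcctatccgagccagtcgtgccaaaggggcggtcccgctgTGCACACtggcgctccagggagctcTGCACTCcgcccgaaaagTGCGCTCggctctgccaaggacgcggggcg
Gsta3, chr1:21240335-21240634, plus strand: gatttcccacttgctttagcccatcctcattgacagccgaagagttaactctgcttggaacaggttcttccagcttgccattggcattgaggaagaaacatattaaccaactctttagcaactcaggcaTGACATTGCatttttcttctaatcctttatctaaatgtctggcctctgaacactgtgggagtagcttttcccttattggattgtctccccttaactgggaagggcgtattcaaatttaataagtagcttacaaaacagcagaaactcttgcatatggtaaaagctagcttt
Cbr3, chr16:93682969-93683268, plus strand: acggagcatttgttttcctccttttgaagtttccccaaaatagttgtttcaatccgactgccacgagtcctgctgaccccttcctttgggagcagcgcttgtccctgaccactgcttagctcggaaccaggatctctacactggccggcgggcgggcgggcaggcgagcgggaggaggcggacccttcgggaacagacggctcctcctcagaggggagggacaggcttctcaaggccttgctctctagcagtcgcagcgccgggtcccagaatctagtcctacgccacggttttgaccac
Positions are counted from the gene start, with -1 the base before it. The Srxn1 window holds 3 matches to the antioxidant response element core, at -158 to -150, at -45 to -37 and at 29 to 37, and 1 to the metal response element core. The Gclm window holds 1 match to the antioxidant core, at -134 to -126, which overlaps 1 of its 3 metal matches. The Mt1 window has 3 metal matches and no antioxidant match. Of the genes that fell, Gsta3 has 1 antioxidant match, at -121 to -113, and Cbr3 has none. Nqo1 has none in this window. A missing match in Nqo1, Mt1 or Cbr3 says only that these letters are not in the window printed.

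No window was found for Hmox1 and Gsta4 (called higher), Gclc and Sod3 (not called), or Gsr and Prdx6 (no probe matched). Windows were found for the other 33 of the 39 genes. An antioxidant core was in a window of 14 of them: 2 of 6 genes called higher, 5 of 11 called lower, 6 of 14 not called and 1 of 2 with no probe matched. A metal core was in 8: 3, 3, 1 and 1 in the same order. Of all 32851 windows, 27.8% held an antioxidant core and 25.7% a metal core. These shares are of single windows, while a gene above was counted when any of its windows matched, and some genes had several.

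Of the 9 glutathione transferases 5 were called lower, 1 higher and 3 not called, against 21.3% lower and 24.6% higher of all genes. Without normalization between arrays, of these 6 only the fall of Gsta3 and the rise of Gsta4 were called, and median scaling added the fall of Gstt1. These enzymes couple glutathione to electrophiles, and GSTA4 in particular detoxifies 4-hydroxynonenal, a product of lipid peroxidation. Gsta3 had the largest fall of the list. Its levels were 8.90 to 9.26 (median 9.14) in controls and 7.08 to 7.48 (median 7.37) with CTGF. The groups were far apart, with a difference of -1.79 ± 0.09 (SE, limma adjusted p = 1.08e-09), or 3.45-fold lower. Gsta4 moved the other way, from a range of 8.61 to 8.74 (median 8.68) in controls to 8.78 to 9.45 (median 9.12), a rise of 0.44 ± 0.10 (SE, limma adjusted p = 0.00161). The control arrays were close together and CTGF replicate 6 lay just above them.

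Gstt1, a theta-class enzyme, ranged from 5.92 to 6.33 (median 6.19) in controls and from 5.35 to 5.88 (median 5.48) with CTGF. The groups just failed to meet, and the difference was -0.64 ± 0.11 (SE, limma adjusted p = 0.000199). It was dim, and its call was lost without normalization between arrays (-0.34, limma adjusted p = 0.0541). Measured from the median of all genes, it was at -0.67 with quantile normalization and at -0.68 without normalization between arrays. Gstt1 was called lower at a smaller size with the authors' values (-0.33) and without background correction (-0.29). The mitochondrial and peroxisomal Gstk1 changed by -0.40 ± 0.08 and the mu-class Gstm1 by -0.35 ± 0.08, with no overlap for either. Gstp1, the pi-class enzyme, changed by -0.26 ± 0.10 (SE, limma adjusted p = 0.0423) with overlapping groups. The call of Gstp1 was lost in 8 of the 12 fits that left out an array, with limma adjusted p up to 0.0851, while its 2 other probes gave -0.58 and -0.40, both called. Gstm2 (-0.06), Mgst1 (-0.18) and Mgst3 (-0.10) were not called at their brightest probes, although 1 further probe of each was called lower, at -0.29, -0.29 and -0.27. With the mean over a gene's detected probes, Mgst1 (-0.24, limma adjusted p = 0.0416) and Mgst3 (-0.19, limma adjusted p = 0.0342) were called lower. Probes of the alpha, mu and pi classes can bind close paralogs.

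The metallothioneins, small cysteine-rich proteins that bind zinc and copper, were represented by Mt1, called higher, and Mt2, not called. Mt1 ranged from 14.40 to 14.73 (median 14.53) in controls and from 15.01 to 15.32 (median 15.13) with CTGF. The groups were separate, and the rise of 0.61 ± 0.08 (SE, limma adjusted p = 2.39e-05) was between 0.57 and 0.65 in every alternative fitted. Measured from the median of all genes, however, it was 0.58 with quantile normalization and 0.26 without normalization between arrays and with median scaling. Its raw intensities were 21809 to 25886 in controls and 30113 to 41589 with CTGF. Mt2, at a dimmer probe, ranged from 5.59 to 7.23 (median 6.71) in controls and from 6.14 to 6.83 (median 6.59) with CTGF. The Mt2 groups overlapped fully, the difference was 0.01 ± 0.24 (SE, limma adjusted p = 0.967), and its pooled SD of 0.48 exceeded that of 99% of all genes.

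Of the superoxide dismutases and catalase 1 of 4 was lower (25%) and none higher, where 21.3% of all genes were lower and 24.6% higher. Sod2, the mitochondrial manganese enzyme, was 13.09 to 13.20 (median 13.12) in controls and 12.75 to 12.98 (median 12.86) with CTGF. It was lower by a small amount with no overlap, -0.27 ± 0.07 (SE, limma adjusted p = 0.00577), a call lost without normalization between arrays (-0.11, limma adjusted p = 0.517, and -0.46 from the median of all genes). Sod1, the cytosolic copper-zinc enzyme, gave -0.01 ± 0.07. Catalase, which splits hydrogen peroxide in peroxisomes, gave -0.13 ± 0.10. The extracellular Sod3 gave 0.07 ± 0.18 and was detected on 5 of 6 control arrays, with Control replicate 1 at 6.15 and the next at 5.25. These 3 were not called.

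Of 5 measured thioredoxins and peroxiredoxins 3 were lower and 2 not called, where 21.3% of all genes were lower. Thioredoxins are disulfide reductases that keep peroxiredoxins, the thiol peroxidases, in their reduced form. Txn1, the cytosolic thioredoxin, ranged from 8.11 to 8.97 (median 8.76) in controls and from 7.56 to 8.70 (median 7.85) with CTGF. The groups overlapped, through CTGF replicate 6 at the top of its group and Control replicate 1 at the bottom of the other, and the difference was -0.67 ± 0.18 (SE, limma adjusted p = 0.00713). Txn2, the mitochondrial form, changed by -0.43 ± 0.08 (SE, limma adjusted p = 0.000606) with no overlap. Prdx1 changed by -0.24 ± 0.07 (SE, limma adjusted p = 0.0134). All 3 calls were lost without normalization between arrays, where Txn1 was at -0.23, Txn2 at -0.01 and Prdx1 at -0.12. Measured from the median of all genes there, Txn1 was at -0.58, Txn2 at -0.36 and Prdx1 at -0.47, against -0.71, -0.46 and -0.27 with quantile normalization.

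Prdx2 and Prdx3 were not called, at 0.04 ± 0.08 and 0.05 ± 0.09. The probes of Prdx2 disagreed, since a dimmer one gave -0.70 with no overlap between groups (limma adjusted p = 2.26e-05 over single probes), and the mean of its detected probes was called lower at -0.33. Of 3 glutathione peroxidases 1 was higher and none lower, where 24.6% of all genes were higher and 21.3% lower. Gpx3, the secreted form, gave 0.33 ± 0.13 (SE, limma adjusted p = 0.0459), with CTGF arrays from 10.15 to 10.95 around the control range of 10.16 to 10.42. Its call was lost in 9 of the 12 fits that left out an array, with limma adjusted p up to 0.107. Gpx1 gave 0.08 ± 0.07 and Gpx4, which reduces lipid hydroperoxides in membranes, 0.15 ± 0.08, neither called, though Gpx4 was called higher with a trended and robust variance (0.15, limma adjusted p = 0.0416). Gpx1 and Prdx3 were called higher without normalization between arrays (0.37 and 0.46) and under median scaling (0.35 and 0.43), where they lay only 0.0247 and 0.11 above the median of all genes.

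**Figure D4:**
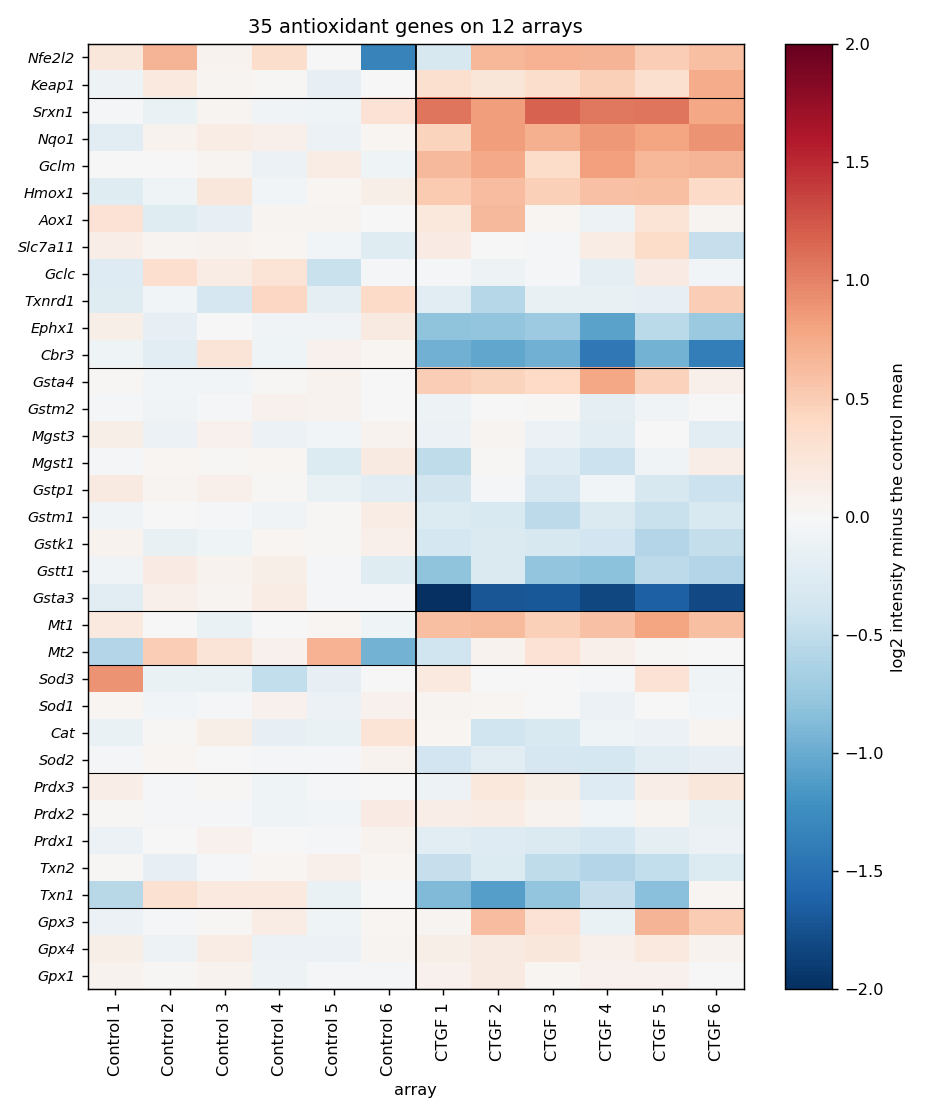
Log2 intensity minus the control mean of the gene (colour, clipped at 2 and -2) for 35 genes in rows, grouped by role, on 6 Control and 6 CTGF arrays in columns. Srxn1, Nqo1, Gclm, Hmox1 and Mt1 are red and Gsta3, Cbr3 and Ephx1 blue on all 6 CTGF arrays, while Nfe2l2 and Mt2 vary between control arrays.

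Where a gene had several detected probes they mostly gave the same sign. This held in 10 of 13 such genes, with Gpx4, Prdx2 and Sod1 the exceptions, and no gene had probes called in both directions. Over single probes, 14 of 53 detected probes of the list were called higher and 18 lower, where 23.8% and 19.7% of all detected probes were. The other 16 probes of the list were not detected on 6 arrays. The median pooled SD within groups was 0.155 in the list. Nfe2l2, Mt2, Txn1, Sod3 and Txnrd1 had the highest values, of which Txnrd1, the lowest of the 5, lay above 91.5% of all genes.

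A wider list of 96 antioxidant pathway genes outside the 39 gave 72 measured genes, of which 16 were higher and 24 lower. These shares were 22.2% and 33.3%, against the 24.6% and 21.3% of all genes. Without normalization between arrays 29 were higher and 4 lower, where 49.1% and 7.78% of all genes were. Among partners and repressors of NRF2, 5 of 8 (62.5%) were higher and none lower, with a median of 0.47. Mafg, a small MAF protein that pairs with NRF2, lay between 8.27 and 8.63 (median 8.41) in controls and between 9.58 and 9.83 (median 9.74) with CTGF. The groups were far apart, and Mafg rose by 1.30 ± 0.08 (SE, limma adjusted p = 6.24e-09), with 0.99 at its other detected probe. Sqstm1, the autophagy receptor p62, which binds KEAP1, rose by 0.78 ± 0.09.

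Glutathione transferases outside the 39 included the largest rise of the wider list. Gsta2 went from 9.17 to 9.56 (median 9.35) in controls to 10.53 to 10.97 (median 10.68) with CTGF, a rise of 1.35 ± 0.10 (SE, limma adjusted p = 3.48e-08). Gsta1 rose by 1.18 ± 0.08 (SE, limma adjusted p = 1.64e-08), with 1.53 and 1.28 at its other detected probes. Neither had overlapping groups. The alpha-class genes Gsta1, Gsta2 and Gsta4 were thus called higher and Gsta3 lower on the same arrays, under quantile normalization, no normalization between arrays, median scaling and the authors' values alike. Gsta1 and Gsta2 are close paralogs, and a probe of one can bind the other. Of the 12 measured transferases outside the 39, 3 (25.0%) were higher and 4 (33.3%) lower, against 24.6% and 21.3% of all genes.

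In the thioredoxin, peroxiredoxin, peroxidase and methionine sulfoxide systems, 9 of 16 genes were lower and 1 higher, against 21.3% and 24.6% of all genes, with a median of -0.28. The largest falls were in Selenop, a secreted selenium carrier (-0.89 ± 0.10, SE, and -1.62 at its other probe), Msrb1, a methionine sulfoxide reductase (-0.83 ± 0.10, and -0.34), and Prdx4, the peroxiredoxin of the endoplasmic reticulum (-0.69 ± 0.08). Txnip, which binds and inhibits thioredoxin, changed by -0.63 ± 0.11, with -0.90 at its other probe. In the quinone, aldehyde and haem group 2 of 16 were higher (12.5%) and 6 lower (37.5%), with Aldh3a1, an aldehyde dehydrogenase, at 0.70 ± 0.15. Aldh3a1 was dim, at 0.32 with the authors' values and 0.28 without background correction, called in both. Xdh, which encodes xanthine oxidoreductase, changed by -1.16 ± 0.12 and Ephx2, the soluble epoxide hydrolase, by -0.76 ± 0.12. Nqo2, the second quinone reductase, changed by -0.37 ± 0.08, in the opposite direction to Nqo1, but with no normalization its value was 0.09, and with median scaling 0.06. Prdx4, Txnip and Ephx2 also lost their calls under these 2 scalings, at -0.29, -0.27 and -0.32 without normalization. Measured from the median of all genes, Nqo2 was at -0.26, Prdx4 at -0.63, Txnip at -0.62 and Ephx2 at -0.67 in both of these fits, against -0.40, -0.72, -0.66 and -0.80 with quantile normalization. The 14 endothelial markers were lower in the same comparison, and their part in these falls was not tested.

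Of the remaining groups, glutathione synthesis and turnover had 4 of 14 genes higher (28.6%) and 2 lower (14.3%), against 24.6% and 21.3% of all genes. The suppliers of NADPH had 1 of 5 higher (20.0%) and 2 lower (40.0%). The 1 measured NADPH oxidase gene, Cyba, named after its value was seen, was lower at -0.53.

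**Figure D5:**
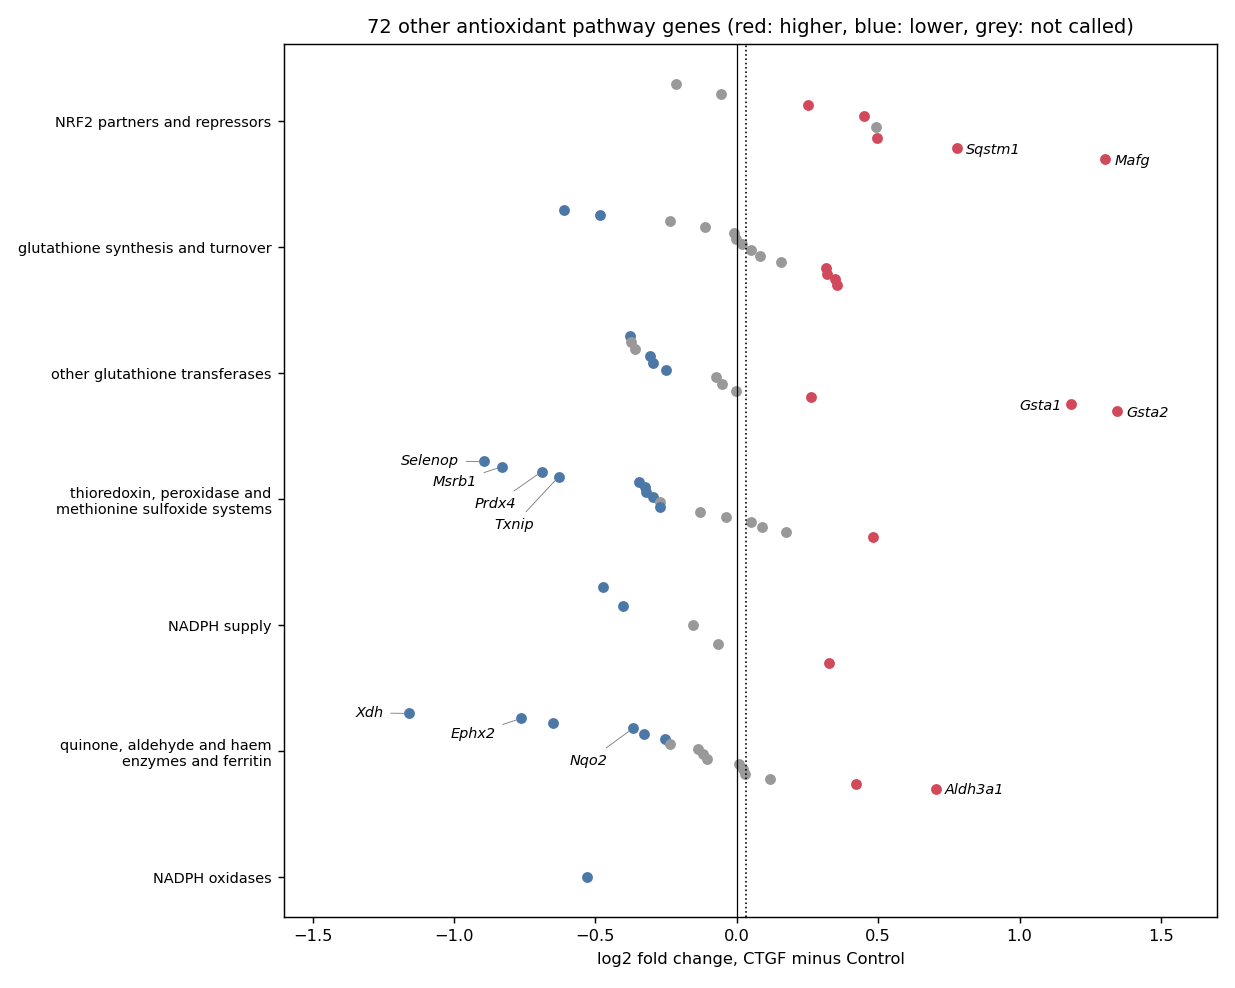
Log2 difference (CTGF minus Control, x axis) of 72 antioxidant pathway genes outside the 39, in 7 groups (y axis), with the dotted line at the median of all genes; red was called higher, blue lower and grey not called, and the genes named in the text are labelled except Cyba, the only NADPH oxidase point. Mafg, Gsta1 and Gsta2 stand to the right of all others and Xdh to the left.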

How the data were processed

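The deposited table of raw values gives, per the file headers, an average signal intensity and a detection p-value for each of 45281 probes on 12 arrays, not normalized between arrays. A second deposited table holds the authors' normalized intensities. Its method is not given in the sources used here, and its sorted columns are nearly the same on every array. All array columns were used. Of the probes, 34885 have 1 gene symbol, 18 have several and 10378 are not listed in the platform annotation.

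Intensities were background-corrected from the detection p-values with an offset of 16, quantile-normalized and log2-transformed (neqc, limma 3.58.1, R 4.3.3). A probe was kept when 6 or more arrays had a detection p below 0.05 (15038; 14747 to 16390 probes were detected per array). The limma model (lmFit, eBayes, two-sided) compared 6 CTGF with 6 Control arrays, each gene by its brightest detected probe, and p-values were adjusted by Benjamini-Hochberg over 8905 genes. Single-probe p-values were adjusted over 15038 probes. The scripts were tested on simulated data. Alternatives covered background, scaling, filter, probe summary, variance model, a block for the replicate number, and each array left out in turn.

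The members, the wider list, the markers and the tests were chosen with earlier results of these data known. By rule, values by array are given for Nfe2l2, Keap1 and called members of at least 0.58 in absolute log2 difference. Of the wider list, the rule names the 5 largest called rises and falls, Nqo2 and Txnip. Promoter windows came from RefSeq tables.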

Additional observations from a re-analysis of the deposited data

Results flagged for a closer look

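In 70 checks of the highest or lowest array of a group (35 genes in each of 2 groups of 6), 3 arrays exceeded Dixon's critical value for the ratio of the gap to the whole range. Chance alone gives such a ratio in about 5% of groups. For Nfe2l2, CTGF replicate 1 was the lowest of its group at 6.99, with the next at 7.81 and the highest at 8.01, a ratio of 0.802. Also for Nfe2l2, Control replicate 6 was the lowest at 5.98, with the next at 7.31 and the highest at 7.99, a ratio of 0.663. For Sod3, Control replicate 1 was the highest at 6.15, with the next at 5.25 and the lowest at 4.76, a ratio of 0.644.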

How the results depend on the processing

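Scaling between arrays moved the counts most, with the median of all genes at 0.35 without normalization and 0.32 under median scaling. Without normalization between arrays 4369 of all genes were higher and 693 lower, and under median scaling 4193 and 740. The 35 antioxidant genes then had 13 higher and 2 lower, and 3 lower under median scaling. The wider list had 29 higher and 4 lower under both. Over single probes the counts were 3576 and 2964 of 15038 in all and 14 and 18 of the 53 antioxidant probes. At an adjusted p under 0.01, 15 of the wider list were lower. The mean marker difference was -0.12 (cardiac myocyte, exact p = 0.271) and -0.20 (fibroblast, exact p = 0.0563) without normalization between arrays, and -0.15 (cardiac myocyte, exact p = 0.193) under median scaling. Signs turned without normalization and under median scaling, in that order, for Gclc (0.055 and 0.0299), Txnrd1 (0.26 and 0.24), Gstm1 (0.0269 and 0.0018), Gstm2 (0.15 and 0.13), Mgst1 (0.26 and 0.24), Mgst3 (0.18 and 0.16), Sod1 (0.16 and 0.13) and Cat (0.31 and 0.28). Measured from that median all 8 stayed negative in these fits, from -0.32 (Gstm1) to -0.04 (Cat), though single genes moved by unequal amounts. Cyclic loess turned Slc7a11 (-0.0324) and Mt2 (-0.0563). Mt2 also turned with no background correction (-0.0169), normexp (-0.0146), the authors' values (-0.0149) and array weights (-0.12). Sod1 turned with array weights (0.0139). The mean over a gene's probes turned Sod1 (0.0366), Prdx2 (-0.33, limma adjusted p = 0.00114) and Gpx4 (-0.0001), and it added calls for Mgst1 and Mgst3, both lower. A trended and robust variance added a call for Gpx4, higher. The cause of the turned signs was not tested. Leaving out 1 array at a time gave -0.13 to 0.0288 for Gclc, -0.0413 to 0.12 for Slc7a11, -0.17 to 0.16 for Mt2, -0.032 to 0.0106 for Sod1 and -0.0317 to 0.25 for Sod3, with 7 to 8 antioxidant genes higher and 10 to 11 lower. Keap1, Nqo1, Hmox1, Gclm, Srxn1, Gsta4, Mt1, Cbr3 and Gsta3 were called in the same direction in all 26 alternatives.

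Samples with the same replicate number did not deviate together (correlations of -0.05 to 0.03, none best with its own number). These numbers come from the sample titles, and the sample descriptions number the controls onward from the CTGF samples. The labels thus state no pairing, and neither this check nor a block for the number can show one by heart or preparation. With the replicate number as a block, 2041 of all genes were higher and 1787 lower, 7 and 10 of the antioxidant genes, and 15 and 22 of the wider list. Gstp1 and Gpx3 lost their calls there. Dim probes limit Gclc, Aox1 and Sod3, which were not detected on every array.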
